A study of Mus musculus with 9 samples.

Results

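The data describe 9 transcription factors of stem spermatogonia, Bcl6b, Lhx1, Pou3f1, Eomes, Foxc2, Pax7, Pdx1, Egr2 and Egr3. They were chosen by name, as factors that depend on glial cell line-derived neurotrophic factor (GDNF) or mark the stem state. The choice was made with earlier results of these data known. All 9 were present among the 46078 gene identifiers of the count files. RNA was sequenced from EGFP-SSCs, a single wild-type (WT) mouse line of spermatogonial stem cells (SSCs) that carries green fluorescent protein. At 0 h the line had been kept on mouse embryonic fibroblast feeders in SSC culture medium that held GDNF, basic fibroblast growth factor and epidermal growth factor. For 24 h and 48 h, SSCs were mixed in equal parts with somatic cells of busulfan-exposed mouse testes taken 3 to 7 days after birth. These cultures received α-MEM with serum replacement (KSR), BMP-4/7, retinoic acid, activin A, testosterone, FSH and BPE, and EGFP-positive cells were then recovered by flow cytometry. Each time had 3 libraries that the labels call biological replicates of this 1 line, so the p-values measure the spread between these cultures only. The medium, the co-cultured cells and the time changed together between 0 h and the later samples, and their effects cannot be told apart.

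GDNF is the growth factor that sustains self-renewal of SSCs. It binds the receptor GFRA1, which is anchored in the membrane and signals through the receptor tyrosine kinase RET, and the signal passes inside the cell through kinases of the SRC, PI3K and MAP kinase families. In cultured SSCs this signal is known to maintain the mRNA of a set of transcription factors that includes Bcl6b, Lhx1, Pou3f1, Egr2 and Egr3. Eomes, Foxc2, Pax7 and Pdx1 have instead been used to mark small populations of spermatogonia at or near the top of the lineage in the testis. Retinoic acid drives the opposite transition, to differentiating spermatogonia that express Stra8 and Kit.

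The libraries held 16825251 to 22201892 counts, and levels are given in CPM, the counts of a gene relative to its library's total after TMM scaling, with the mean ± SD of 3 libraries. The 8 germ cell markers were present in every library, and 3 of them, Ddx4, Mael and Tdrd1, did not pass the test between any of the times. The list also holds Zbtb16 and Lin28a, which the study counts as markers specific to SSCs. Of the 8, 1 was higher at 24 h and 3 were lower at 48 h against 0 h. Among those lower were Zbtb16 (-0.57, adjusted p = 0.0238) and Dnd1 (-0.61, adjusted p = 0.0476). At 48 h against 24 h, 4 were lower. Stra8, the retinoic acid-induced gatekeeper of meiosis, had 39 to 54 counts in the 0 h libraries and 8856 to 19953 in the later ones. The 0 h libraries differed from each other along base composition. Among the tenth of genes richest in G and C (over 57.9% of the transcript), the median deviation from the mean of the 9 libraries was -0.31, 0.06 and 0.24 on the log2 scale in 0 h replicates 1, 2 and 3. Of the 9 factors, the transcripts of Pou3f1 and Foxc2 lie above this limit. Bulk RNA cannot separate fewer cells that express a gene from less RNA of that gene per cell.

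Within the first day, 8 of the 9 factors fell, and Pdx1 was too low to be tested. The falls spanned a wide range, and the calls of the smallest, Pou3f1 and Pax7, depended on single libraries or settings as given with each gene. Egr3, Lhx1 and Foxc2 were 54.0-fold, 42.9-fold and 31.1-fold lower at 24 h than at 0 h. Bcl6b and Egr2 were 12.1-fold and 11.9-fold lower, Eomes 4.14-fold, Pou3f1 2.25-fold and Pax7 1.43-fold. In this comparison 14.2% of the 17592 genes tested were lower at an adjusted p of up to 0.05 and 11.4% were higher, by the quasi-likelihood test of edgeR, adjusted over all genes tested by the Benjamini-Hochberg method, which gives every adjusted p below. At 48 h against 0 h, 7 of the 9 factors were lower, where 18.5% of the 17755 genes tested were lower and 13% higher, and Pax7 was not called. Between 24 h and 48 h, Pou3f1 and Foxc2 fell further and Pax7 rose, against 12.7% lower and 8.61% higher of 17499 genes, and 5 factors were not called. The 8 factors that passed the filter had a median log2 fold change of -3.59 at 24 h and -3.72 at 48 h against 0 h, where the medians of all genes tested were 0.0052 and 0.017. All 8 had their 24 h libraries wholly below their 0 h libraries, as had some genes that were not called, such as Gfra4 and Ssbp3. The share of all genes tested with such a separation was not counted.

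**Figure D1:**
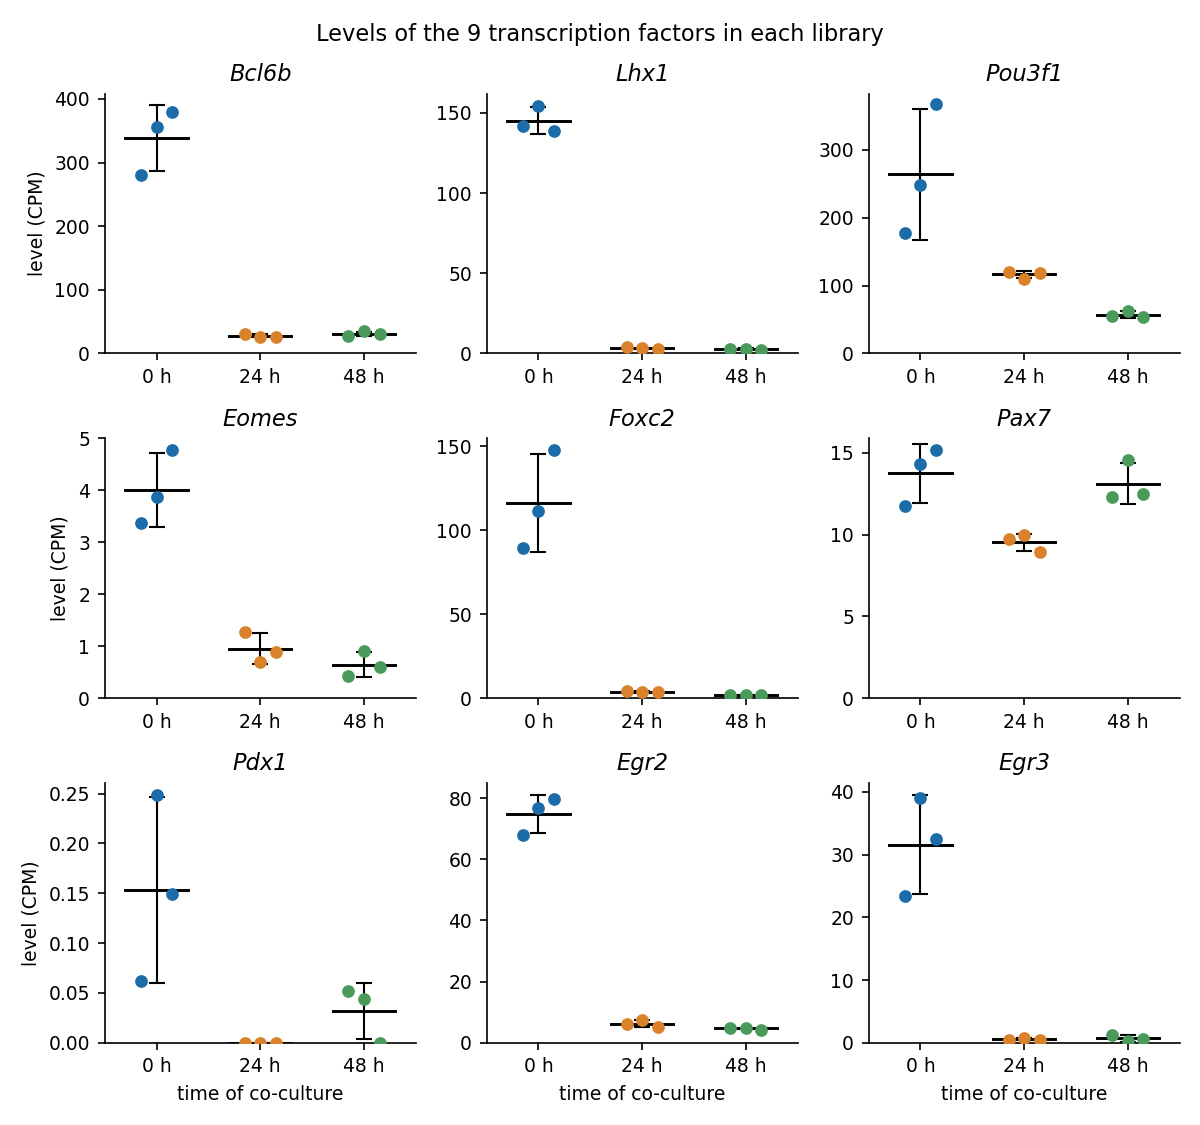
Level (CPM, linear axis from 0) of each of the 9 factors in the 3 libraries of each time, with a black line at the mean and bars of 1 SD. The 0 h points stand clear above the later ones for every factor but Pax7, whose 48 h libraries lie among the 0 h libraries, and Pdx1, which never passed 0.25 CPM.

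When library size alone was used for scaling, the median log2 fold change of all genes shifted by 0.11 at 24 h and at 48 h against 0 h, and the percentage of called genes that were higher went from 44.5% to 57.1% at 24 h and from 41.2% to 52.8% at 48 h. For the factors this ended 1 call, that of Pax7 at 24 h.

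Bcl6b encodes a BTB-domain zinc finger repressor and was the most abundant of the 9 at 0 h. The gene (ENSMUSG00000000317) lies on the minus strand of chromosome 11 from 70224128 to 70229798 in GRCm38. Its level was 280, 356 and 379 CPM in the 0 h libraries, 30.4, 26.4 and 26.1 at 24 h, and 28.0, 34.5 and 30.2 at 48 h. The 24 h and 48 h libraries overlapped, and every later library, at 34.5 CPM or less, lay far below the lowest 0 h library. The log2 fold change was -3.60 (standard error 0.16, adjusted p = 1.57e-05) at 24 h and -3.45 (0.16, adjusted p = 1.54e-05) at 48 h. From 24 h to 48 h it was 0.15, with a 95% interval from -0.07 to 0.37 (adjusted p = 0.303).

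Lhx1 encodes a LIM homeodomain protein that needs LDB cofactors, and it lies on the minus strand of chromosome 11 from 84518284 to 84525535 (ENSMUSG00000018698). Its level was 142, 154 and 139 CPM at 0 h, a 1.11-fold spread that was the smallest of the 9 as a ratio of the highest to the lowest library. It was 3.68, 3.32 and 3.03 CPM at 24 h and 2.78, 2.96 and 1.98 at 48 h, between 39 and 75 counts in each later library. Lhx1 thus remained detectable at all times, at 2.30% and 1.77% of its 0 h level. The log2 fold changes were -5.42 (standard error 0.14, adjusted p = 2.68e-06) at 24 h and -5.81 (0.19, adjusted p = 5.7e-06) at 48 h, ranks 25 and 24 from the largest fall among all genes tested. The 48 h libraries lay below the 24 h libraries without overlap, but the difference of -0.39 (95% interval -0.88 to 0.10) was not called (adjusted p = 0.231). Both Bcl6b and Lhx1 are named by the study as stem cell genes that fell in these libraries, so their direction here is not independent evidence.

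Lhx1os, a long noncoding RNA that starts beside Lhx1 and runs in the other direction, is given for its position. It had 138, 259 and 178 counts at 0 h, 28, 13 and 27 at 24 h, and 10, 12 and 20 at 48 h. Both genes had fewer counts at the later times. The sequence before the start of Lhx1 is shown because the 2 genes begin there, read on the minus strand of GRCm38.p6 at chr11:84525535-84525784 from the RefSeq promoter table, 250 bases that end where the transcript begins. The capitals mark the only match of the motifs searched, TGACGTC, which read on the other strand is GACGTCA, 7 of the letters of the cAMP response element.

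Lhx1 promoter: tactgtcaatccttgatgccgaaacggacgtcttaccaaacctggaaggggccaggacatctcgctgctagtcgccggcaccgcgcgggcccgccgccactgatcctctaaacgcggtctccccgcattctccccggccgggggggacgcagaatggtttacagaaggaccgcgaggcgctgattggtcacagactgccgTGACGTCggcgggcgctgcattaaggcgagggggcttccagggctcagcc

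The match covers bases -50 to -44 from the start, and GACGTCA on either strand is held by 2.78% of the 32841 promoter windows in the table. The last base of the window is the first of the transcript in GENCODE, and part of the window is transcribed as an exon of Lhx1os.

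Pou3f1 encodes a POU homeodomain factor, also called Oct6, in a single exon on the plus strand of chromosome 4 from 124656807 to 124660655 (ENSMUSG00000090125). It fell in 2 steps. Its level was 177, 248 and 367 CPM at 0 h, 120, 110 and 119 at 24 h, and 54.6, 62.9 and 54.2 at 48 h. The groups did not overlap, although the 0 h libraries themselves differed 2.08-fold. The log2 fold change was -1.17 (standard error 0.24, adjusted p = 0.0116) at 24 h against 0 h, -1.03 (0.08, adjusted p = 0.000125) at 48 h against 24 h, and -2.20 (0.26, adjusted p = 0.000772) over both days. The Pou3f1 transcript holds 63.9% G and C. In a fit with GC and length offsets the fold change at 24 h was -1.25 (adjusted p = 0.000193). With the same offsets the second step was smaller, -0.82 (adjusted p = 8.64e-05), as was the change over both days, -2.07 (adjusted p = 1.33e-05). The 24 h call was lost without 24 h replicate 2 (adjusted p = 0.0577) or without 24 h replicate 3 (adjusted p = 0.0533), within a range from 9.47e-05 to 0.0577 over all alternatives. An antisense gene, Gm2164, shares 330 bases (8.57%) of the Pou3f1 exon and had 1 to 19 counts per library. The library protocol names no step that marks the strand, and the strand setting of the counting is not given in the sources used here. How reads of the shared bases were assigned is therefore not known.

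Egr2 and Egr3 encode zinc finger proteins of the early growth response family, whose genes are switched on quickly by growth factor signals. Egr2 (ENSMUSG00000037868, chromosome 10, 67535475 to 67542188, plus strand) stood at 67.8, 76.9 and 79.8 CPM at 0 h, 6.14, 7.44 and 5.08 at 24 h, and 4.87, 4.87 and 4.36 at 48 h. Every later library, at 7.44 CPM or less, lay far below the lowest 0 h library. The log2 fold changes were -3.58 (standard error 0.17, adjusted p = 2.38e-05) at 24 h and -3.99 (0.13, adjusted p = 5.7e-06) at 48 h. From 24 h to 48 h the difference was -0.41, with a 95% interval from -0.81 to -0.01 and an adjusted p of 0.127.

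Egr3 (ENSMUSG00000033730, chromosome 14, 70077203 to 70082614, plus strand) had 374, 785 and 652 counts at 0 h, 10, 15 and 9 at 24 h, and 25, 5 and 12 at 48 h. In CPM this was 31.6 ± 7.86 at 0 h, 0.578 ± 0.196 at 24 h and 0.712 ± 0.554 at 48 h. It was the deepest fall of the 9 at 24 h, rank 14 of 17592 genes, with a log2 fold change of -5.75 (standard error 0.30, adjusted p = 3.01e-05). At 48 h against 0 h the value was -5.50 (0.50, adjusted p = 0.000242), and without 48 h replicate 1 it was -6.26. The few counts left at the later times did not allow an order between 24 h and 48 h, where the 95% interval ran from -1.06 to 1.59 and the sign turned to -0.49 without 48 h replicate 1.

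The same family holds Egr1 and Egr4, and the mean levels of the 4 genes moved by unequal amounts. At 24 h the mean level was 22.4% of the 0 h mean for Egr1, 8.31% for Egr2, 1.83% for Egr3 and 60.0% for Egr4. Egr1 fell by 2.14 (standard error 0.14, adjusted p = 7.59e-05) on the log2 scale. Egr4 was not called at 24 h (-0.72, adjusted p = 0.0905) or at 48 h (-0.80, adjusted p = 0.0563), with 0 h libraries that spread 2.22-fold. Counted within each library, where scaling cancels, there were 33.1 to 62.4 Egr2 counts per 100 Egr4 counts at 0 h, 5.27 to 6.04 at 24 h and 4.14 to 5.07 at 48 h. The Egr3 counts per 100 Egr2 counts were 34.4 to 50.7 at 0 h and 8.0 to 10.8 at 24 h, so Egr3 lost a larger share of its counts than Egr2 in each 24 h library. At 48 h this ratio spread from 4.46 to 26.9. NAB1 and NAB2 are corepressors that bind EGR proteins, and their genes are given for this role. At 24 h Nab1 fell by 1.11 (adjusted p = 0.0218) on the log2 scale, and Nab2 fell by 1.12 (adjusted p = 0.0259), and at 48 h Nab2 was called (-1.34, adjusted p = 0.0134) and Nab1 was not (-0.72, adjusted p = 0.0796).

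**Figure D2:**
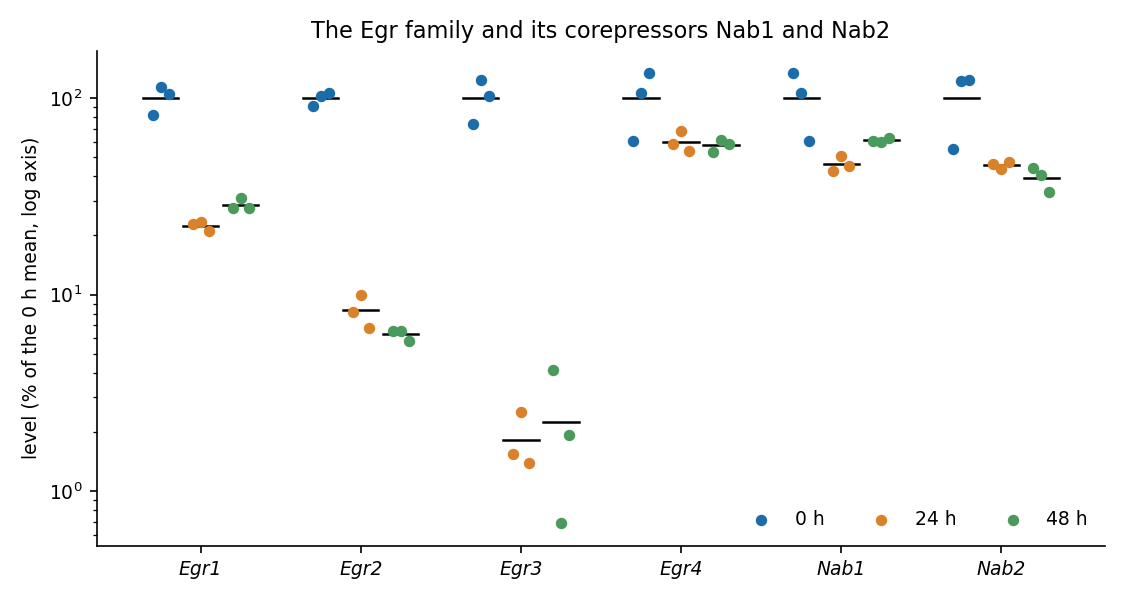
Level of the 4 Egr genes and of Nab1 and Nab2 in each library, in percent of the gene's mean at 0 h on a log axis, with a black line at the mean of each time. At 24 h the means run from 1.83% for Egr3 to 60.0% for Egr4, whose lowest 0 h library lies at the level of the later ones.

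Egr2 is a textbook target of serum response factor, which binds the CArG box, and of factors at the cAMP response element. The promoter window that ends at the annotated start of its main transcript holds both motifs. It is shown on the plus strand of GRCm38.p6 at chr10:67537619-67537868, from the RefSeq promoter table, with the matches in capitals.

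Egr2 promoter: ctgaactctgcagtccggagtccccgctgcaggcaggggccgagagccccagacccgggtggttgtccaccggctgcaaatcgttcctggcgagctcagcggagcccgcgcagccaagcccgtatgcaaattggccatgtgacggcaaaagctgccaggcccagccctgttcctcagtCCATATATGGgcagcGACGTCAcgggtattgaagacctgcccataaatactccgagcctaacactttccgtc

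The first run in capitals, at bases -72 to -63 from the start, is a CArG box, which 1.47% of the 32841 windows hold on either strand. The second, at -57 to -51, is GACGTCA, the motif also matched at Lhx1. Overlapping windows of Egr2, chr10:67537620-67537869 and chr10:67537680-67537929, hold the same matches. Another RefSeq start of Egr2 lies upstream, and its window, chr10:67537316-67537565, holds a CArG box and 3 matches of the ETS core CCGGAA, 2 of which overlap on opposite strands, where 12.0% of windows hold that core. The window of the most upstream RefSeq start of Egr2, chr10:67535249-67535498, holds no match. The searched motifs were the CArG box, TGACGTCA (1.55% of windows), GACGTCA, which lies within it, CCGGAA, and the EGR sites GCGTGGGCG (0.536%) and GCGGGGGCG (2.57%), on both strands. The table has windows for 5 of the 9 factors, Lhx1, Eomes, Pax7, Pdx1 and Egr2, and those of Eomes, Pax7 and Pdx1 hold no match of these motifs. The matches describe the sequence and are no evidence of binding.

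Foxc2 encodes a forkhead protein and is a single-exon gene on the plus strand of chromosome 8 from 121116171 to 121118895 (ENSMUSG00000046714). It fell deeply on the first day and again on the second. Its level was 89.6, 111 and 147 CPM at 0 h, 4.23, 3.42 and 3.42 at 24 h, and 1.73, 1.87 and 1.87 at 48 h. No libraries overlapped between the times, and the 48 h libraries differed from each other by only 1.08-fold. The log2 fold change was -4.96 (standard error 0.23, adjusted p = 2.07e-05) at 24 h and -5.99 (0.23, adjusted p = 9.65e-06) at 48 h, rank 19 of 17755 genes. The second step of -1.02 (0.20, adjusted p = 0.00765) was called. The transcript is rich in G and C (62.0%), and with GC and length offsets the second step was -0.79 (adjusted p = 0.0208). Over all alternatives to the second step the adjusted p ran from 0.000797 to 0.0531. Gm20388, a gene model that spans Foxc2, had 0 counts in all libraries and shares none of its exon bases. The ratio of Foxc2 to Pou3f1 differed without overlap between 0 h and 24 h and overlapped between 24 h and 48 h, with 40.2 to 50.7 Foxc2 counts per 100 Pou3f1 counts at 0 h, 2.88 to 3.51 at 24 h and 2.97 to 3.46 at 48 h.

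Eomes, the T-box factor on the plus strand of chromosome 9 from 118478212 to 118486132 (ENSMUSG00000032446), was low throughout. It had 54, 78 and 96 counts at 0 h, 26, 13 and 18 at 24 h, and 8, 21 and 12 at 48 h. In CPM this was 4.01 ± 0.718, 0.951 ± 0.297 and 0.647 ± 0.249, and the 0 h libraries lay above all later ones. The log2 fold change was -2.05 (standard error 0.31, adjusted p = 0.0029) at 24 h and -2.60 (0.34, adjusted p = 0.00125) at 48 h. The 24 h and 48 h libraries overlapped, and the difference of -0.55 had a 95% interval from -1.44 to 0.34 (adjusted p = 0.351). An antisense gene model, Gm33460, covers 118 bases (2.84%) of the Eomes exons and has no counts of its own in the count files. Whether reads from it were counted for Eomes is not known.

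Pax7, the paired-box factor best known from muscle stem cells, kept most of its level. The gene (ENSMUSG00000028736) spans 139737062 to 139833528 on the minus strand of chromosome 4. Its level was 11.7, 14.3 and 15.2 CPM at 0 h, 9.73, 9.95 and 8.94 at 24 h, and 12.3, 14.6 and 12.5 at 48 h. The 24 h libraries were below all others, and the 48 h libraries lay within the range of 0 h. At 24 h the log2 fold change was -0.52 (standard error 0.15, adjusted p = 0.0446), a call that was lost in 9 of 15 alternatives, with adjusted p from 0.0147 to 0.157. At 48 h against 0 h it was -0.07 (adjusted p = 0.78), with a 95% interval from -0.44 to 0.30. From 24 h to 48 h Pax7 was higher by 0.45 (0.12, adjusted p = 0.0241), a call lost in 4 of 15 alternatives, among them the fit of all 9 libraries together (0.46, adjusted p = 0.0864) and the fits without 24 h replicate 1, 24 h replicate 3 or 48 h replicate 2 (adjusted p = 0.065, 0.0614 and 0.0593). Within each library there were 4.14 to 6.64 Pax7 counts per 100 Pou3f1 counts at 0 h, 7.53 to 9.05 at 24 h and 22.6 to 23.1 at 48 h.

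Pdx1, a homeodomain factor of pancreas development (ENSMUSG00000029644, chromosome 5, 147269959 to 147275848, plus strand), was at the limit of detection. It had 1, 5 and 3 counts at 0 h, 0 in each 24 h library, and 1, 1 and 0 at 48 h. A count of 0 allows up to 3 counts, which is 0.147 to 0.160 CPM in the 24 h libraries, and no fold is given. The edgeR fit without a filter, which did test Pdx1, did not call it in any comparison, and DESeq2 gave it no adjusted p. These limits cover counting error only.

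**Figure D3:**
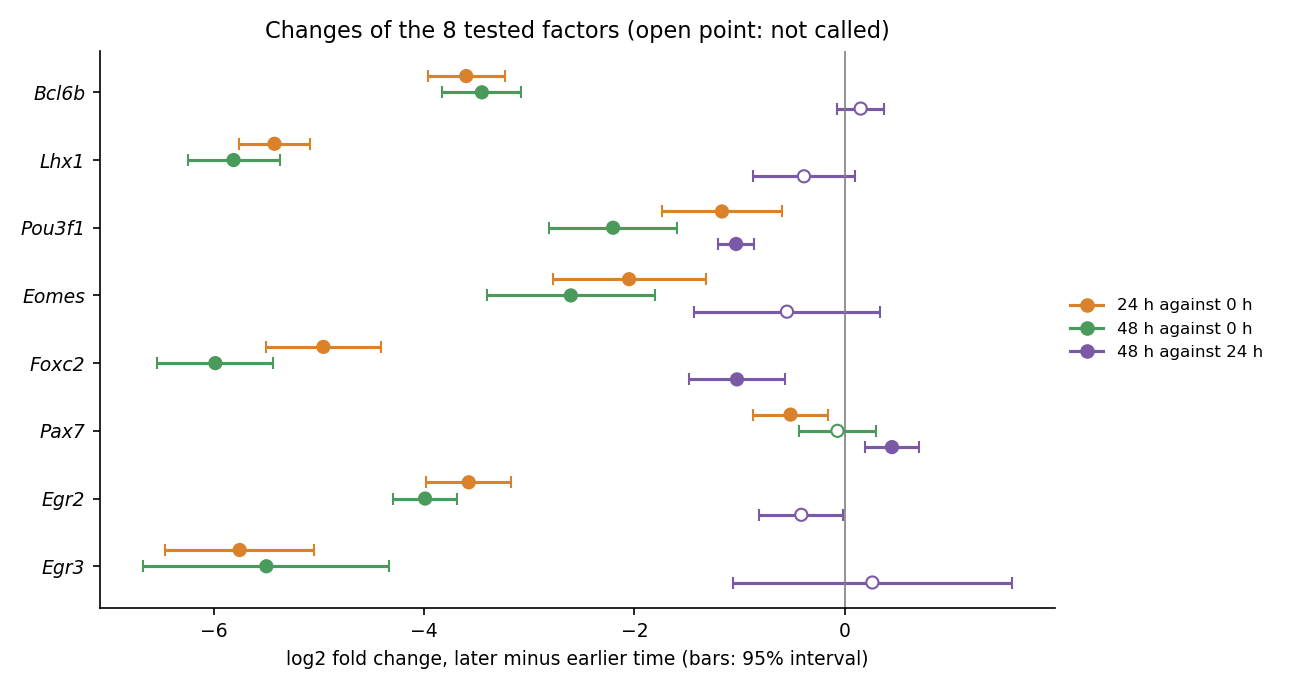
Log2 fold change of the 8 factors that could be tested, with the 95% interval, for 24 h against 0 h, 48 h against 0 h and 48 h against 24 h. Filled points passed an adjusted p of 0.05, and the intervals at 24 h run from Egr3 at -5.75 to Pax7 at -0.52, while for 48 h against 24 h the filled points are Pou3f1, Foxc2 and Pax7.

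Per kilobase of exon (FPKM, CPM divided by the length of the union of exons), the order of the 9 factors at 0 h was Bcl6b (91.0 ± 13.9), Pou3f1 (68.6 ± 25.0), Foxc2 (42.6 ± 10.7), Lhx1 (35.6 ± 2.02), Egr2 (22.0 ± 1.85), Egr3 (7.17 ± 1.78), Pax7 (2.35 ± 0.309), Eomes (0.965 ± 0.173) and Pdx1 (0.0711 ± 0.0431). The 4 highest overlapped with their neighbours in this order, and from Lhx1 down each factor was clear of the next. At 24 h Pou3f1 led at 30.2 ± 1.45 FPKM, 4.07 times Bcl6b at 7.43 ± 0.639. Egr2, Pax7 and Foxc2 followed at 1.83, 1.63 and 1.35 FPKM, and neighbours among these 3 overlapped. Lhx1 was at 0.821, Eomes at 0.229 and Egr3 at 0.131 FPKM, the last pair overlapping. At 48 h Pou3f1 (14.9 ± 1.28) and Bcl6b (8.31 ± 0.879) still led, and Pax7 had moved to place 3 at 2.24 ± 0.214 FPKM, from place 7 at 0 h. Egr2 followed at 1.38 FPKM, Foxc2 (0.669) overlapped with Lhx1 (0.631), and Egr3 (0.162) with Eomes (0.156). With the longest transcript as the gene length, 9 of 9 places stayed at 0 h and at 24 h, and 7 of 9 at 48 h. The summed level of the 9 factors was 795 to 1165 CPM at 0 h, 162 to 176 at 24 h and 106 to 123 at 48 h.

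**Figure D4:**
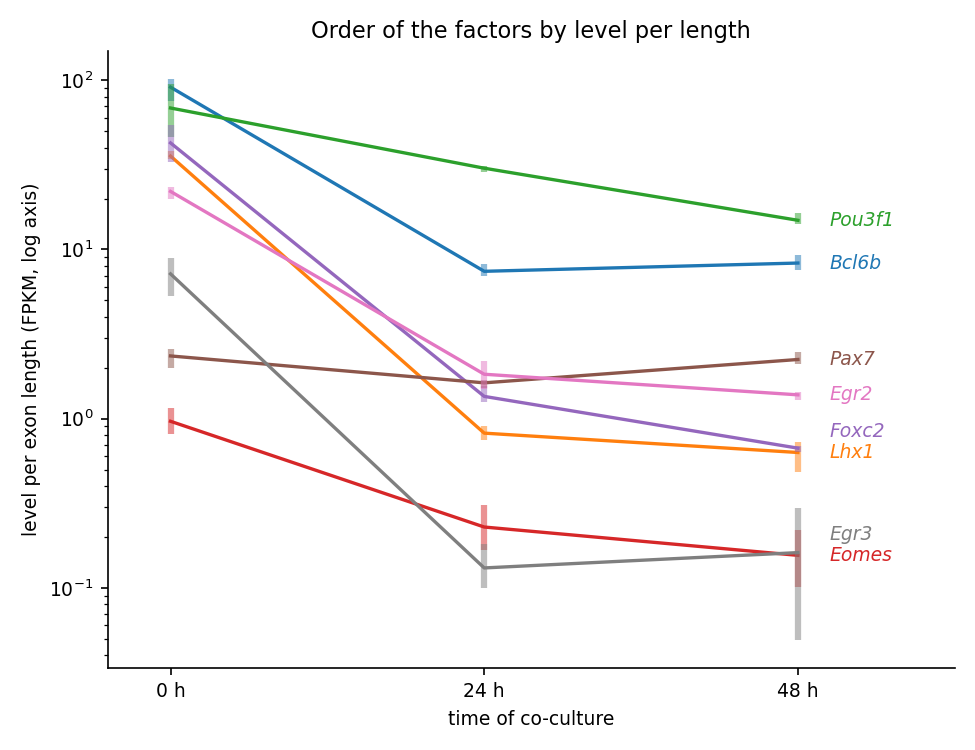
Mean level per kilobase of exon (FPKM, log axis) of the 8 factors that passed the filter, by time of co-culture, with thick bars from the lowest to the highest library. Pax7 stays near 2 FPKM and moves from place 7 at 0 h to place 3 at 48 h, as Foxc2, Lhx1, Egr2 and Egr3 cross below it.

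The factors were also compared with each other and with all other genes by the Pearson correlation of log2 CPM over the 9 libraries, a description in which all points share 3 group levels. Among the factors r was highest between Lhx1 and Egr2 (0.997) and between Egr2 and Foxc2 (0.994). Pax7 had r of 0.223 to 0.591 with the others. Among 13653 protein-coding genes with a mean of at least 1 CPM, those most like Bcl6b included Sh2b3 (r = 0.998) and Igf2bp1 (r = 0.997). Those most like Lhx1 were Adam33, Etv5, an ETS factor that GDNF also maintains, and 2900026A02Rik. For Foxc2 they were Tmem132e (r = 0.999), the ETS factor gene Etv4, and Cdh3, which encodes P-cadherin. For Egr2 they were Mmrn2, Bhlhe41 and 2900026A02Rik, and for Egr3 BC107364, Arap3 and Spred3, the last a gene of an inhibitor of RAS and MAP kinase signals. Those of Eomes were Pde9a, Itgb2 and Foxf1, with r from 0.984 to 0.992. Pou3f1 was most like Arap1, Phgdh and Paox, which fell in 2 steps as well, Phgdh with means of 407, 229 and 141 CPM. Pax7 was most like Hist1h4d, Nop2 and the clock gene Nr1d1 (r = 0.966), whose means dipped from 69.6 to 51.6 CPM at 24 h and stood at 71.8 at 48 h.

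The closest relatives of the 9 factors were scarce apart from the Egr genes. Of 14 relatives, 8 were not tested, Pou3f2, Pou3f4, Tbr1, Tbx21, Pax3, Cdx2, Gsx1 and Gsx2, and none of these averaged more than 0.627 CPM at any time. At 24 h, 3 of the 6 tested were lower, 1 was higher and 2 were not called. Besides Egr1, Pou3f3 (-1.71, adjusted p = 0.0204) and Lhx5 (-1.56, adjusted p = 0.0121), relatives of Pou3f1 and Lhx1, were lower, at means of 1.84 and 3.02 CPM at 0 h. Bcl6, the relative of Bcl6b, rose by 1.70 (standard error 0.21, adjusted p = 0.00127), from 2.34 ± 0.258 to 7.54 ± 1.30 CPM, and stood at 7.06 ± 0.123 at 48 h (1.59, adjusted p = 0.000735). Bcl6 and Bcl6b therefore moved in opposite directions, with Bcl6 remaining the scarcer of the pair in CPM. At 48 h against 0 h, 2 relatives were lower, 1 was higher and 3 were not called.

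Among 17 genes of proteins that work with the factors, 5 were lower, 3 higher and 9 not called at 24 h, and 8 were lower, 2 higher and 7 not called at 48 h. The median log2 fold change of this list was -0.33 at 24 h. Ldb1, the LIM-domain partner of LHX1, was not called at 24 h (0.20, adjusted p = 0.546) and had a mean of 142 CPM at 0 h. The LIM-only genes, whose proteins compete for LDB1, went both ways, since on the log2 scale Lmo2 fell by 1.88 (adjusted p = 0.0002) and Lmo1 rose by 1.68 (adjusted p = 0.00244). Pbx3, a homeodomain partner, fell by 1.38 (adjusted p = 0.000193), and Bcor, a corepressor of BCL6, fell by 1.19 (adjusted p = 0.000439). The largest change of the cofactors at 24 h, that of Lmo2, was smaller in value than those of Bcl6b, Lhx1, Eomes, Foxc2, Egr2 and Egr3, a difference that was not tested.

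Other genes that respond to GDNF in spermatogonia were lower too. Of 9 such genes, 9 were lower at 24 h, with a median log2 fold change of -2.58, and 8 at 48 h. Of all genes tested, 14.2% and 18.5% were lower in these comparisons. This list, like the others, was chosen with earlier results of these data known, so its counts are not independent evidence. On the log2 scale Etv5 fell by 5.52 (standard error 0.14, adjusted p = 2.68e-06), Nanos2, an RNA-binding repressor of differentiation, fell by 2.72 (adjusted p = 0.000375), and the chemokine receptor gene Cxcr4 fell by 2.71 (adjusted p = 4.71e-05). T, the gene of brachyury and like Eomes a T-box factor, had 23, 45 and 39 counts at 0 h and 0 to 3 in the later libraries. The study names Etv5 and Nanos2 as genes that fell in these libraries. Of the 6 genes of GDNF family receptors, Ret (-3.76, adjusted p = 7.42e-06), Gfra1 (-2.65, adjusted p = 1.57e-05) and Gfra2 (-1.19, adjusted p = 0.0232) were lower at 24 h and Gfra3 was higher (3.83, adjusted p = 4.94e-05), with 2 not called. Of 14 immediate early genes, 7 were lower and 7 not called at 24 h, the largest changes being those of Ier3 (-2.66, adjusted p = 8.45e-05) and Egr1. Their median was -0.61, against -3.58 and -5.75 for Egr2 and Egr3.

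Of 7 transcription factors of progenitor and differentiating spermatogonia, 3 were higher and 4 not called, at 24 h and again at 48 h. Sox3, a factor of progenitors, rose by 2.35 (standard error 0.24, adjusted p = 0.000494) at 24 h, from 36.6 ± 13.2 to 185 ± 8.62 CPM. Sohlh1, a factor that switches on Kit, rose by 2.10 (0.15, adjusted p = 0.000103), and Dmrt1 by 0.74 (0.16, adjusted p = 0.0129). The 24 h and 48 h levels of Sox3 and Sohlh1 did not pass the test against each other (adjusted p = 0.467 and 0.29).

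Markers of several types of somatic cell rose beside these changes although the later cells were sorted for EGFP. The 0 h line grew on embryonic fibroblast feeders, so stroma markers cannot be assigned to testis somatic cells alone. The summed level of 8 stroma markers went from 271 to 376 CPM at 0 h to 2146 to 2502 at 24 h and 2947 to 3268 at 48 h, with 6 of 8 higher at 24 h. That of 6 myoid markers went from 13.8 to 15.6 CPM at 0 h to 146 to 208 and then 263 to 321, with 5 of 6 higher. The sums of Sertoli markers (15.2 to 19.3, 52.8 to 84.1 and 66.9 to 70.8 CPM) and Leydig markers (4.49 to 7.00, 28.7 to 44.8 and 29.1 to 37.3 CPM) were higher as well. At 24 h, 6 of the 7 Sertoli markers tested were higher and Sox9 was lower, and 3 of the 4 Leydig markers tested were higher, while the defining Sertoli receptor gene Fshr had at most 3 counts in every library. Endothelial markers (43.7 to 47.8, 15.1 to 19.6 and 13.0 to 13.9 CPM) and macrophage markers (16.3 to 18.0, 6.79 to 11.8 and 7.65 to 8.41 CPM) were lower in sum, with 2 lower and 2 higher of 5 endothelial markers tested and 1 lower and 2 higher of 3 macrophage markers at 24 h. Markers of differentiating spermatogonia summed to 562 to 648 CPM at 0 h, 2325 to 2431 at 24 h and 1519 to 1575 at 48 h, with 4 of 6 higher at both later times. The 8 germ cell markers, Zbtb16 and Lin28a among them, summed to 1973 to 2937 CPM at 0 h, 2265 to 2480 at 24 h and 2192 to 2374 at 48 h. At 24 h, 1 of 8 was higher and 7 not called, and at 48 h against 0 h 3 were lower and 5 not called. At 48 h against 24 h, 4 of the 8 were lower and 4 not called. The sums of germ cell markers in the later libraries lay within the wide range of 0 h, where Dazl had the highest mean of the list (868 CPM). The sum of the 9 factors was 162 to 176 CPM at 24 h, and its lowest 0 h value was 795 CPM. These sums were not tested against each other. The part of the somatic RNA in the changes of single factors was not tested.

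**Figure D5:**
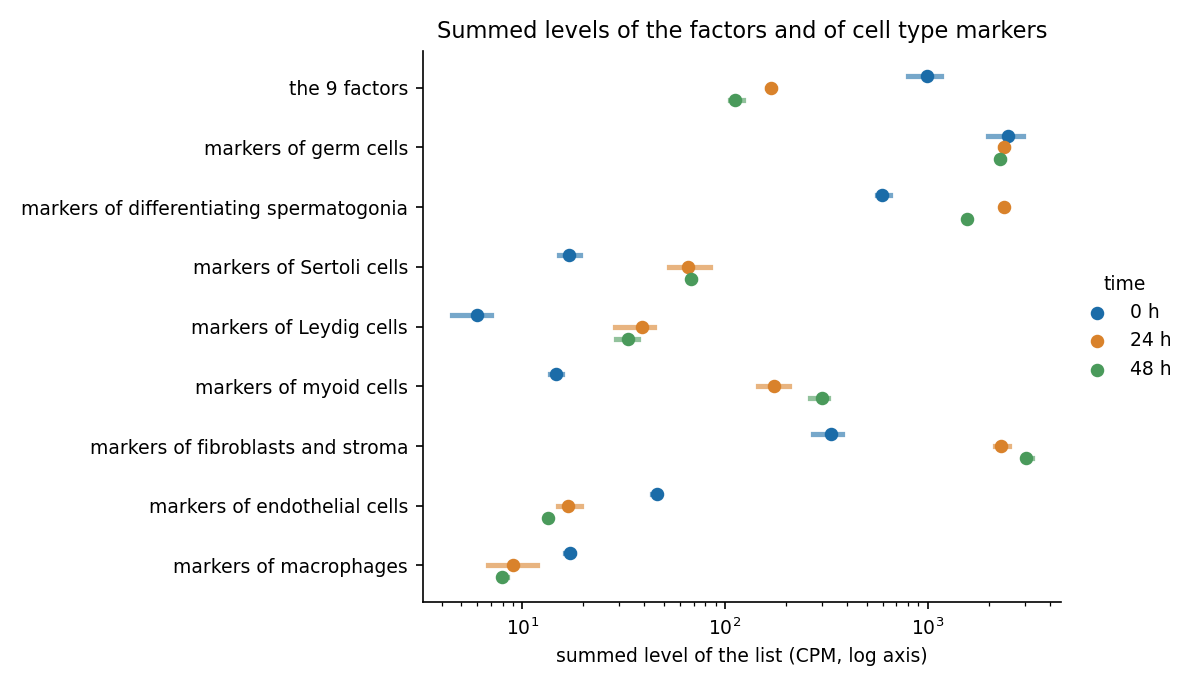
Summed level (CPM, log axis) of the 9 factors and of each list of cell type markers at 0 h, 24 h and 48 h, with points at the mean and bars from the lowest to the highest library. The germ cell markers lie between 1973 and 2937 CPM. The 9 factors fall to 106 to 123 CPM at 48 h, and the stroma markers reach 3268 CPM.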

How the data were processed

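Poly-A RNA of 9 libraries was sequenced, 3 at each of 0 h, 24 h and 48 h. The authors deposited raw counts per Ensembl gene, whole numbers without normalization, 1 file per library. The submitters' processing notes name fastp, HISAT2, featureCounts and GRCm38. Symbols, positions and exons came from GENCODE M21, which matched 45229 of 46078 identifiers, and the other 849 held at most 0.121% of any library. The members and lists were chosen with earlier results of these data known. Each comparison used its 6 libraries, filterByExpr, TMM, and edgeR 4.0.16 (quasi-likelihood, two-sided) under R 4.3.3. P-values were adjusted by Benjamini-Hochberg over all genes tested, with a threshold of 0.05. CPM used TMM over the 9 libraries and, for correlations, a prior count of 2. Named genes were the 9 factors, up to 4 called genes of a list with the largest change, genes at the floor of 3 counts, and for each factor the 3 protein-coding genes of highest correlation. 1 gene named by this rule is not reported here. Alternatives were DESeq2 1.42.0 and its size factors, library size alone, no filter, 1 joint fit of all 9 libraries, a minimum of 10 counts per library, the replicate block, spline offsets for GC and length with and without that block, and leaving out each library. The procedure was tested on simulated data. No library was a copy of another, since chi-square per degree of freedom between replicates was 7.13 or more. BLAST 2.17.0 found no stretch of at least 75 bases at 97% identity shared with other genes, except the antisense overlaps of Pou3f1 and Eomes. Figures were drawn with matplotlib 3.10.9. The histone and peptide data of the study were not analysed here.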

Additional observations from a re-analysis of the deposited data

How the results depend on the processing

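Leaving Pax7 aside, 304 of 308 alternative values of the factors' log2 fold changes kept their direction and their side of the threshold, 3 lost the call and 1 turned. The calls lost were those of Pou3f1 at 24 h (above) and of Foxc2 for 48 h against 24 h with GC and length offsets and the replicate block (-0.79, adjusted p = 0.0531), which left 1 factor lower in that comparison. Egr3 for 48 h against 24 h, not called, turned to -0.49 without 48 h replicate 1 and reached 0.72 without 48 h replicate 2. Pax7 for 48 h against 0 h, not called, turned to 0.042 with library size alone, to 0.089 with GC and length offsets with or without the replicate block, and to 0.038 without 0 h replicate 3, within -0.17 to 0.038 when a library was left out. The number of factors called higher for 48 h against 24 h was 0 with all 9 libraries in 1 fit and 0 to 1 when a library was left out. Leaving out 1 library gave 6 to 8 factors lower at 24 h and 7 at 48 h, and 10 counts in every library, which drops Egr3 and at 48 h Eomes, gave 6 and 5, the first also because Pax7 was not called (adjusted p = 0.0546).

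The number of all genes called depended on the libraries. Among the fits that left out 1 library, the number for 24 h against 0 h was lowest, 2607, without 24 h replicate 2. It was highest, 6023, without 0 h replicate 3. For 48 h against 0 h the extremes of these fits were 3471 (48 h replicate 1 left out) and 7116 (0 h replicate 1). For 48 h against 24 h they were 1857 (48 h replicate 1) and 4356 (48 h replicate 2), and with all 9 libraries in 1 fit the number was 1043. The cause was not tested. In the same order of comparisons, GC and length offsets gave 6372, 7648 and 3831 genes, and no filter gave 4270, 5280 and 4543. The replicate block gave 3007, 4013 and 2497 genes, against 4494, 5602 and 3732 in the main fits. It ended no call of a factor but that of Pax7 at 24 h (adjusted p = 0.123). Deviations of same-numbered libraries correlated from -0.28 to 0.196, and those of differently numbered libraries from -0.392 to 0.38. With 3 libraries per time and so wide a spread, this cannot decide whether equal replicate numbers share a batch. A prior count of 5 kept 22 of the 24 most alike gene pairs. Depth limits Pdx1, Eomes and Egr3 at the later times.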
